A study of Mus musculus with 2 samples.

Results

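The 10 genes described here, in mouse testis, encode inflammasome components and some of the ligands of the interleukin-1 (IL-1) family: the sensors Nlrp3 and Aim2, the adaptor Pycard, the inflammatory caspases Casp1 and Casp4, the pore gene Gsdmd, the cytokine genes Il1a, Il1b and Il18, and the receptor antagonist gene Il1rn. They were taken by symbol, and all 10 were found among the 18722 loci of the deposited table. The study sequenced testis RNA of male C57BL/6J mice at 16 weeks of age in 2 libraries. One, shDmrt1, came from testis carrying a short hairpin RNA directed at Dmrt1, whose product regulates transcription in Sertoli cells and spermatogonia, with the genotype given as Dmrt1 knockdown. The other, shControl, came from testis with a control hairpin, with the genotype given as WT. The labels do not say how the hairpins were delivered or the number of testes or animals behind a library. Since each condition has a single library, no test between conditions was run, and every value below compares 2 libraries.

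An inflammasome is a cytosolic complex that forms when a sensor such as NLRP3 or AIM2 recruits the adaptor ASC, the product of Pycard, and through it caspase-1. Caspase-1 cuts the precursors of IL-1 beta and IL-18 into active cytokines and cuts gasdermin D, whose freed part forms pores in the plasma membrane through which the cytokines leave the cell. Caspase-4, long called caspase-11 in mice, senses bacterial lipopolysaccharide in the cytosol and also cuts gasdermin D, while IL-1 alpha acts without this cutting step. The precursor of IL-1 beta is scarce in resting macrophages and is induced by Toll-like receptor and NF-kB signals, a step known as priming, and the product of Il1rn occupies the IL-1 receptor without signalling. RNA levels show neither assembly of the complex nor cutting of its substrates. In the testis, macrophages of the interstitium are a known source of IL-1 beta, and IL-1 alpha is known as a product of the seminiferous tubules.

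The shDmrt1 library held 24594371 counts and the shControl library 17846426. Dmrt1 itself had 39 counts in shDmrt1 and 852 in shControl, and Spry1, the gene that the series title names, had 209 and 389. Leydig cell markers were far lower in shDmrt1, with all 6 markers more than 2-fold lower and summed levels of 238 CPM (counts scaled to a common library total) in shDmrt1 and 22470 CPM in shControl. Among them Cyp17a1, a steroid-synthesis enzyme, had 280 counts in shDmrt1 and 83928 in shControl. All 8 Sertoli cell markers were lower too, at 497 CPM in shDmrt1 and 6175 CPM in shControl in sum, and the 5 germ cell markers that passed a filter on low counts were lower. Acrv1, a germ cell marker that did not pass it, had 0 counts in shDmrt1 and 15 in shControl. All 6 germ cell markers summed to 1.67 CPM in shDmrt1 and 63.7 CPM in shControl, so their level was low in shControl as well. Of the protamine genes, Prm1 had 3 counts in shDmrt1 and 43 in shControl, and Prm2 had 1 and 91. One gene went against the strain label of the shControl library. Ifi202b, a relative of Aim2 that is known to be silent in C57BL/6 mice because its promoter and first exon are missing there, had 0 counts in shDmrt1 and 246 in shControl. Its transcripts shared no stretch of 50 bases with those of another gene in the GENCODE M21 annotation. Whether the libraries differ in strain background was not tested, and with 1 library each such a difference and the hairpin cannot be told apart.

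Sequence around the start sites is shown for 5 genes, since Il1b and Il1rn had the highest ratios between the libraries, Il1a is the neighbour of Il1b, and Nlrp3 and Casp4 hold an NF-kB consensus motif. Each run covers 250 bases before and 50 after an annotated start site (RefSeq, GRCm38.p6), written 5′ to 3′ on the gene's own strand, with capitals marking any match on either strand to the NF-kB consensus motif, the interferon-stimulated response element, TGANTCA (bound by AP-1), TTCNNNGAA (bound by STAT factors), TTGCNNAA (bound by C/EBP factors), GAGGAAG (bound by PU.1) or TATAAA.
Il1b, chr2:129371090-129371389, minus strand: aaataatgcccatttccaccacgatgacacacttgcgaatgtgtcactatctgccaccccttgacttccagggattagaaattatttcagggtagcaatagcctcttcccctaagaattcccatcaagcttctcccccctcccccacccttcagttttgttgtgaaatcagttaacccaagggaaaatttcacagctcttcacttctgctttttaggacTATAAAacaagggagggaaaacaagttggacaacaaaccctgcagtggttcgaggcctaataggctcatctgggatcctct
Il1a, chr2:129309923-129310222, minus strand: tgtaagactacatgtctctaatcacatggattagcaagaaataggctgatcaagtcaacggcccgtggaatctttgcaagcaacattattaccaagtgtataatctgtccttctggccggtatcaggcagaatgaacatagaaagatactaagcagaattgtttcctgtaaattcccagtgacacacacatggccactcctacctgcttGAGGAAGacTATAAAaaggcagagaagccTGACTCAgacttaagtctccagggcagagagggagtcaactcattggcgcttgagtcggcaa
Il1rn, chr2:24336610-24336909, plus strand: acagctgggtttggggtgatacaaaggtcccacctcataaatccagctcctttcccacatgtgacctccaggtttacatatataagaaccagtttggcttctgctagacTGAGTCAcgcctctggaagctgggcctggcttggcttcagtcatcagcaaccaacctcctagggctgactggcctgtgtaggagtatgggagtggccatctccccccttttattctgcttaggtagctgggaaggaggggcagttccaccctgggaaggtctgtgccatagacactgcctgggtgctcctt
Nlrp3, chr11:59541319-59541618, plus strand: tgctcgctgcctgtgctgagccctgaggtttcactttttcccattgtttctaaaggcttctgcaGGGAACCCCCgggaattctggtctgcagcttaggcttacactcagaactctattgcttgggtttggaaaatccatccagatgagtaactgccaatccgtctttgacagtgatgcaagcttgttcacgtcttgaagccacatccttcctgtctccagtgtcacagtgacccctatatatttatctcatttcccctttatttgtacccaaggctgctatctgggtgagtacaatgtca
Casp4, chr9:5308599-5308898, plus strand: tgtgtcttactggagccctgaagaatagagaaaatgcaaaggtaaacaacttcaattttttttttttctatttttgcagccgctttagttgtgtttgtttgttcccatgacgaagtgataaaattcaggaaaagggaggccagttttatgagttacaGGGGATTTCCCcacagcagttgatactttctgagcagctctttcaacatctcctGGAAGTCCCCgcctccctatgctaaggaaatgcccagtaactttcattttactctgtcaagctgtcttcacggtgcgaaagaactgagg

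A TATAAA box stood at -31 to -26 from the start site of Il1b and at -32 to -27 from that of Il1a, both on the gene's strand. The motif also lay on the opposite strand, at -175 to -170 for Il18 and at 14 to 19 from another start site of Il1rn than the one shown. In all it occurred for 4 genes, in 4 of the 13 windows, and 13.6% of all 32851 windows in the table hold it on either strand. TGANTCA lay at -12 to -6 in Il1a and at -141 to -135 in Il1rn, against 7.81% of all windows. The NF-kB consensus was found for 2 of the 9 genes with a window, Nlrp3 and Casp4. It was in 3 of the 13 windows of these 9 genes, against 8.46% of all windows, and the Casp4 windows overlap each other. In Casp4 it lay on the gene's strand as 2 overlapping matches at -93 to -83 and on the other strand at -39 to -30, and in Nlrp3 at -186 to -177. The Il1b window held none of the motifs besides TATAAA, and no window of the 9 genes held the interferon-stimulated element (3.44% of all windows) or TTCNNNGAA (8.3%). GAGGAAG occurred for 4 genes, Aim2, Il1a, Nlrp3 and Pycard, in 4 of the 13 windows, against 13.6% of all windows. TTGCNNAA occurred only for Pycard, in 1 of the 13 windows, against 10.8%. A match describes the letters of this window only, and for Nlrp3, Casp4 and Il1rn the table holds other start sites as well. Gsdmd is named without a window.

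All 10 genes were higher in the shDmrt1 library. Each passed the rule used throughout, that the whole 95% counting interval of the ratio lies beyond 2-fold, and 17.8% of the 15104 loci with at least 1 CPM in 1 library were higher by the same rule, while 20.8% were lower. The median log2 ratio of the 10 genes was 3.11, an 8.64-fold difference, beside -0.02 over all loci that passed the filter. The ratio is shDmrt1 over shControl, computed on counts scaled with TMM factors, and its interval covers counting error only. The genes passed the filter in the shControl library as well, with Il1b the least abundant there at 19 counts and 1.06 CPM. In bulk tissue, more cells of a type and more RNA per cell cannot be told apart.

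**Figure D1:**
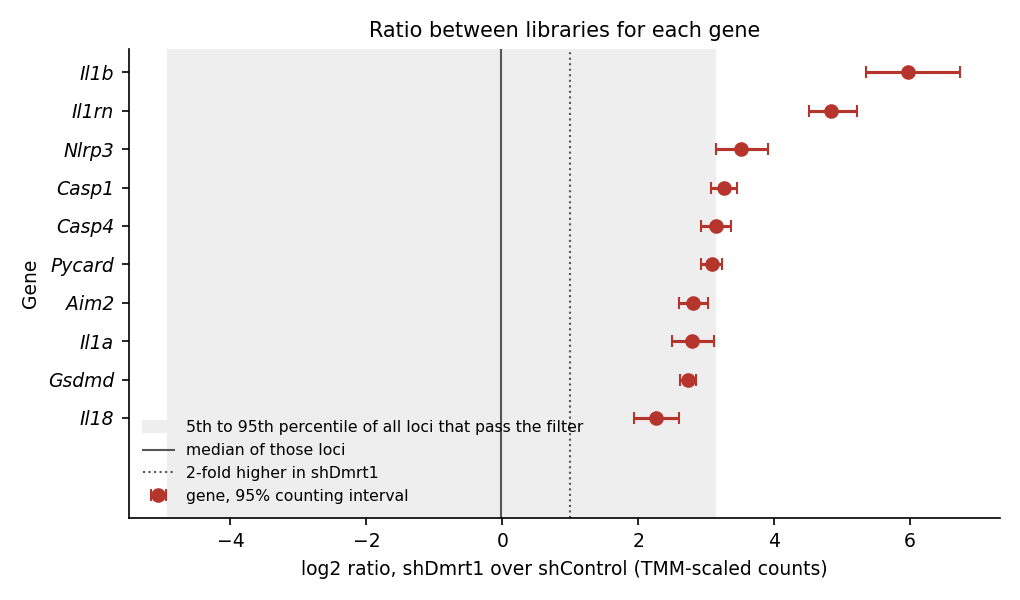
Points give the log2 ratio of TMM-scaled counts, shDmrt1 over shControl, for each of the 10 genes, with bars for the 95% counting interval. Grey shading spans the 5th to 95th percentile of all loci that pass the filter (-4.91 to 3.13), the solid line is their median and the dotted line is a 2-fold difference. Il1b at 5.96 and Il1rn at 4.84 stand apart from the other 8 genes.

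Among the sensors, Nlrp3 (ENSMUSG00000032691, chromosome 11, 59541568 to 59566956 on GRCm38) had 732 counts in shDmrt1 and 63 in shControl. By FPKM, the authors' length-scaled value, its level was 10.6 in shDmrt1 and 0.779 in shControl, the lowest of the 10 genes in both libraries. Its scaled counts were 11.4-fold higher (95% interval 8.85 to 15.1). The NLRP3 protein responds to many kinds of damage, among them the efflux of potassium. Aim2 (ENSMUSG00000037860, chromosome 1, 173350879 to 173466040), whose product binds double-stranded DNA in the cytosol, had 1573 counts in shDmrt1 and 221 in shControl, or 32.2 and 5.53 FPKM. It was 7.004-fold higher (6.09 to 8.12). Both sensors were thus present in shControl and severalfold higher in shDmrt1, and the count of Nlrp3 per count of Aim2 was 0.465 in shDmrt1 and 0.285 in shControl. That ratio, which does not depend on the scaling between libraries, differed by 0.71 on the log2 scale (0.28 to 1.15).

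The adaptor gene Pycard (ENSMUSG00000030793, chromosome 7, 127989708 to 127993867) was the most abundant of the 10 genes per length in both libraries. It had 3264 counts and 192 FPKM in shDmrt1, against 380 counts and 22.3 FPKM in shControl, an 8.46-fold difference (7.61 to 9.44). ASC joins a sensor to caspase-1 through a pyrin domain and a caspase recruitment domain. Itgam, an integrin gene of myeloid cells that lies within 100 kb of Pycard, was 22.8-fold higher, and was named here after its value was seen.

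Casp1 and Casp4 lie head to tail on chromosome 9, with 1562 bases between the end of Casp1 (5298517 to 5307265) and the start of Casp4 (5308828 to 5336783). Casp1 had 2587 counts in shDmrt1 and 266 in shControl, or 85.0 and 9.02 FPKM, and was 9.57-fold higher (8.45 to 10.9). Casp4 had 1687 counts in shDmrt1 and 188 in shControl, or 55.8 and 6.83 FPKM, and was 8.83-fold higher (7.61 to 10.3). The pair kept nearly the same proportion, with 1.53 counts of Casp1 per count of Casp4 in shDmrt1 and 1.41 in shControl, and the interval of that difference (-0.18 to 0.41 on the log2 scale) includes 0. The third caspase gene of the cluster, Casp12, whose product is found at the endoplasmic reticulum, had 791 counts in shDmrt1 and 486 in shControl, a log2 ratio of 0.68 (0.52 to 0.85). Counts of Casp1 per count of Casp12 were 3.27 in shDmrt1 and 0.547 in shControl, a log2 difference of 2.58 (2.33 to 2.83). Casp12 was singled out after its value was seen. No stretch of 50 bases in the transcripts of Casp1 or Casp4 occurred in those of another gene, so reads of that length separate them.

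The pore gene Gsdmd (ENSMUSG00000022575, chromosome 15, 75862327 to 75867408) had more counts than any of the other 9 genes in both libraries, 4275 in shDmrt1 and 635 in shControl, or 110 and 15.8 FPKM. It was 6.63-fold higher (6.11 to 7.23). Per count of Casp1 there were 1.65 counts of Gsdmd in shDmrt1 and 2.39 in shControl, so the substrate was higher by less than the protease, a log2 difference of -0.53 (-0.75 to -0.31). Ninj1, whose product ruptures the membrane after gasdermin pores form, was 6.55-fold higher, with 8179 counts in shDmrt1 and 1231 in shControl. Of the other gasdermin genes analysed, Gsdme, listed under its older symbol Dfna5, had 102 counts in shDmrt1 and 215 in shControl, a log2 ratio of -1.09 whose interval (-1.45 to -0.75) reaches inside 2-fold. It was named after its value was seen.

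**Figure D2:**
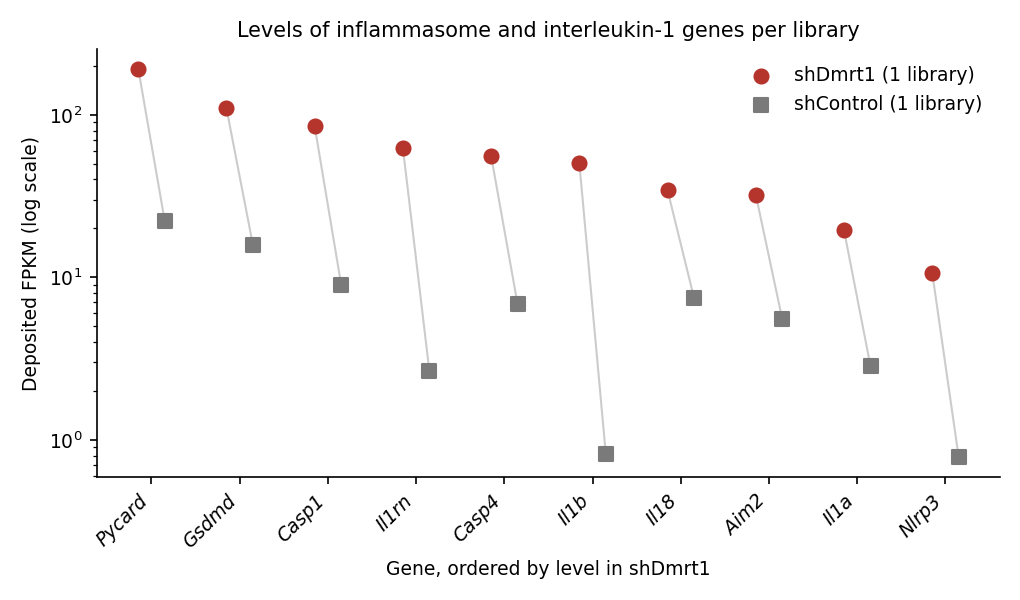
Deposited FPKM of each gene on a log axis, with a circle for the shDmrt1 library and a square for the shControl library, ordered by the level in shDmrt1. In shDmrt1 the levels run from 10.6 to 192 FPKM and in shControl from 0.779 to 22.3 FPKM, and the lines of Il1b and Il1rn are the steepest.

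The cytokine genes differed most among themselves. Il1b (ENSMUSG00000027398, chromosome 2, 129364570 to 129371139) had 1234 counts in shDmrt1 and 19 in shControl, or 50.3 and 0.815 FPKM, and was 62.4-fold higher (40.8 to 107). Of the 15104 loci, 172 had a higher ratio, or 1.14%. Il1a (ENSMUSG00000027399, 129299610 to 129309972), which lies 54597 bases from Il1b on the same strand and whose start site is shown above, had 716 counts in shDmrt1 and 101 in shControl, or 19.4 and 2.84 FPKM. It was 6.96-fold higher (5.67 to 8.70). Il18 (ENSMUSG00000039217, chromosome 9, 50554827 to 50581840), the cytokine that drives interferon gamma release from lymphocytes, had 468 counts in shDmrt1 and 96 in shControl, or 34.2 and 7.46 FPKM. It was 4.79-fold higher (3.85 to 6.05), the lowest ratio of the 10 genes.

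These unequal ratios left a different mixture of cytokine RNAs in each library. Per count of Il1b there were 0.58 counts of Il1a in shDmrt1 and 5.32 in shControl, a 9.16-fold lower share (log2 -3.20, interval -4.00 to -2.46). For Il18 the values were 0.379 counts per Il1b count in shDmrt1 and 5.05 in shControl, 13.3-fold lower. On the FPKM scale Il1b was the sixth of the 10 genes in shDmrt1, above Il18 and Il1a, and the ninth in shControl, below both. These pairs, and the pair of Il1rn and Il1b described next, were chosen after the values were seen. A ratio within a library does not move with the scaling between libraries.

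Il1rn (ENSMUSG00000026981, chromosome 2, 24336853 to 24351494), which encodes the secreted and intracellular forms of the receptor antagonist from different start sites, had 2111 counts in shDmrt1 and 72 in shControl, or 62.3 and 2.65 FPKM. It was 28.7-fold higher (22.9 to 37.1), a ratio that 270 of the 15104 loci exceeded. Il1rn was above Il1b in both libraries, but by less in shDmrt1, with 1.71 counts of antagonist per count of Il1b in shDmrt1 and 3.79 in shControl, 2.21-fold lower (log2 -1.15, interval -1.97 to -0.39). The shControl value rests on the 19 counts of Il1b. The table gives 1 value per gene, so the forms of Il1rn are not separated. The deposited FPKM put Il1rn at a log2 ratio of 4.51 and Aim2 at 2.52, each below its counting interval.

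In the order of ratios, Il1b lay above Il1rn and Il1rn above Nlrp3, each step beyond counting error. Of the 9 pairs of neighbours in that order, 5 did not differ beyond counting error, namely Nlrp3 and Casp1, Casp1 and Casp4, Casp4 and Pycard, Aim2 and Il1a, and Il1a and Gsdmd. Pycard and Aim2 differed narrowly (log2 0.27, interval 0.01 to 0.53), and Gsdmd lay above Il18 (0.47, interval 0.11 to 0.81). Without Il1b and Il1rn, the other 8 genes ranged from 4.79-fold to 11.4-fold. The authors' deposited table, from its EBSeq comparison of the same 2 libraries, gives the 10 genes log2 fold changes from 2.23 for Il18 to 5.85 for Il1b, positive where shDmrt1 is higher. These values rest on the same counts and are not a separate measurement.

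Most markers of macrophages and monocytes and of neutrophils were higher in shDmrt1, and most of the 10 genes are known to be expressed in myeloid cells. Other immune markers were less uniform. Of 5 dendritic cell markers that passed the filter, 3 were higher and 2 neither (median log2 ratio 1.55). Of 4 B cell markers, 1 was higher and 3 neither (median 1.01). Of 12 macrophage and monocyte markers, 9 were higher, 2 lower (Mrc1 and Cd163, of resident macrophages) and 1 neither, and their summed level was 4786 CPM in shDmrt1 and 798 CPM in shControl. Single markers ranged from 0.366 to 1076 CPM in shDmrt1 and from 11.3 to 221 CPM in shControl, and none was at 0. The lysosomal marker Cd68 was 32.4-fold higher, Itgam 22.8-fold and Adgre1, which encodes F4/80, 11.1-fold. All 11 neutrophil markers were higher, with summed levels of 984 CPM in shDmrt1 and 11.7 CPM in shControl and single markers from 3.46 to 307 CPM and from 0 to 9.30 CPM. S100a8, Retnlg and Elane were at 0 counts in shControl, which allows up to 0.168 CPM, and Ly6g and S100a9 had 1 count each. The part of these cells in the ratios of the 10 genes was not tested. Sums in CPM throughout use library totals, without the TMM factors of the ratios. Library totals shift the log2 ratio of all loci by a median of -0.44, so sums and ratios are on different scales.

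Set against macrophage and monocyte markers within each library, the 10 genes split. The sum of markers differs in its mixture, with Mrc1 at 1311 of 117700 marker counts in shDmrt1 and 3945 of 14235 in shControl. There were 10.5 counts of Il1b per 1000 counts of the 12 markers in shDmrt1 and 1.33 in shControl, 7.85-fold more (log2 2.97, interval 2.32 to 3.71). For Il1rn the values were 17.9 in shDmrt1 and 5.06 in shControl, 3.55-fold more. Pycard, by contrast, had 27.7 in shDmrt1 and 26.7 in shControl (log2 0.05, interval -0.10 to 0.21), and Casp4 had 14.3 and 13.2 (0.12, interval -0.10 to 0.34). Nlrp3 (6.22 in shDmrt1 and 4.43 in shControl) and Casp1 (21.98 and 18.7) were above by less than 1.5-fold with intervals that exclude 0. Gsdmd (36.3 in shDmrt1 and 44.6 in shControl), Aim2 (13.4 and 15.5) and Il18 (3.98 and 6.74) were below, and Il1a (6.08 and 7.10) had an interval that includes 0.

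The marker chosen changed this split for 4 of the 6 genes compared, all but Il1b and Il18. Against Cd68 alone, Il1b remained above, with a log2 difference of 0.98 (0.32 to 1.73), while Il1rn had -0.16 (-0.52 to 0.21), Casp1 -1.76 and Pycard -1.93. Against Adgre1 alone, Il1b stood at 2.52, Il1rn at 1.38, Nlrp3 at 0.04 (-0.34 to 0.45) and Casp1 at -0.21 (-0.42 to -0.0039). Pycard was below Itgam and Adgre1 as well, at -1.43 and -0.39 (-0.58 to -0.21). Il18 was below each of Cd68, Itgam and Adgre1, at -2.75, -2.25 and -1.21. The 3 markers and the 6 genes were chosen after their values were seen.

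**Figure D3:**
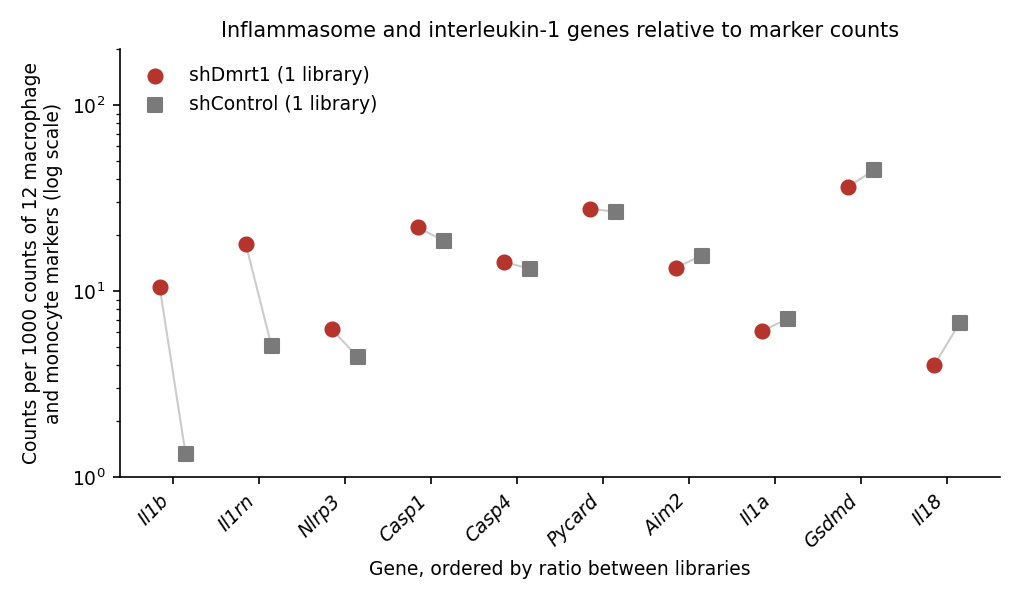
Counts of each gene per 1000 counts of 12 macrophage and monocyte markers in the same library, on a log axis, with circles for shDmrt1 and squares for shControl. Il1b (10.5 in shDmrt1 and 1.33 in shControl) and Il1rn (17.9 and 5.06) show wide gaps between the libraries, and Pycard (27.7 and 26.7) nearly none.

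None of the genes for the IL-1 receptor, its co-receptor and its decoy was called higher. Il1r1, the signalling receptor for IL-1 alpha and IL-1 beta, was 7.55-fold lower, with 937 counts in shDmrt1 and 6978 in shControl (log2 -2.92, interval -3.02 to -2.82). The co-receptor gene Il1rap had 257 counts in shDmrt1 and 227 in shControl (0.16, interval -0.10 to 0.42). The decoy receptor gene Il1r2, which binds IL-1 without signalling, had 49 counts in shDmrt1 and 32 in shControl (0.59, interval -0.08 to 1.28), and its ratio by deposited FPKM was -0.16. There were 1.32 counts of Il1b per count of Il1r1 in shDmrt1 and 0.00272 in shControl. Leydig and Sertoli cell markers were lower in the same library by the sums given above, with none at 0. Single Leydig markers ranged from 0.122 to 180.2 CPM in shDmrt1 and from 231 to 11327 CPM in shControl, and single Sertoli markers from 0.163 to 424 CPM and from 16.4 to 5461 CPM. Their part in the ratio of Il1r1 was not tested.

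On the IL-18 side, both receptor chains and the soluble inhibitor were higher. Il18r1 had 872 counts in shDmrt1 and 154 in shControl, 5.57-fold higher, and Il18rap 908 and 93, 9.58-fold higher. Both chains are known from T and NK cells, whose 7 markers summed to 368 CPM in shDmrt1 and 53.3 CPM in shControl, with 6 of 7 higher, a range of 3.01 to 111 CPM and of 1.40 to 22.3 CPM, and none at 0. The T cell marker Cd3d was 13.5-fold higher. Il18bp, whose product binds and neutralises IL-18, had 3207 counts in shDmrt1 and 244 in shControl and was 12.9-fold higher. Per count of Il18 there were 6.85 counts of Il18bp in shDmrt1 and 2.54 in shControl, 2.70-fold more (log2 1.43, interval 1.05 to 1.81). The inhibitor thus differed by more than the cytokine, whereas Il1rn differed by less than Il1b.

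Of the 9 receptors and decoys, 5 were higher, 1 lower and 3 neither (median 2.48). Il1rl2, the receptor for IL-36 cytokines, was 7.36-fold higher, and Il1rl1, the IL-33 receptor, had 97 counts in shDmrt1 and 69 in shControl (0.47, interval 0.01 to 0.94). Among other ligands of the family, Il33 was 8.33-fold higher, with 950 counts in shDmrt1 and 112 in shControl. Fibroblasts are a known source of IL-33, and 4 of 5 fibroblast markers were higher, with sums of 4340 CPM in shDmrt1 and 1037 CPM in shControl, ranges of 80.1 to 1917 CPM and of 3.53 to 440 CPM and none at 0. Their part in this ratio was not tested. Il1f9, which encodes IL-36 gamma, had 90 counts in shDmrt1 and 146 in shControl (-0.72, interval -1.11 to -0.33), and Il1f6 had 0 counts in both, which allows up to 0.122 CPM in shDmrt1 and 0.168 CPM in shControl, although its deposited FPKM in shControl is 0.0693 and not 0.

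**Figure D4:**
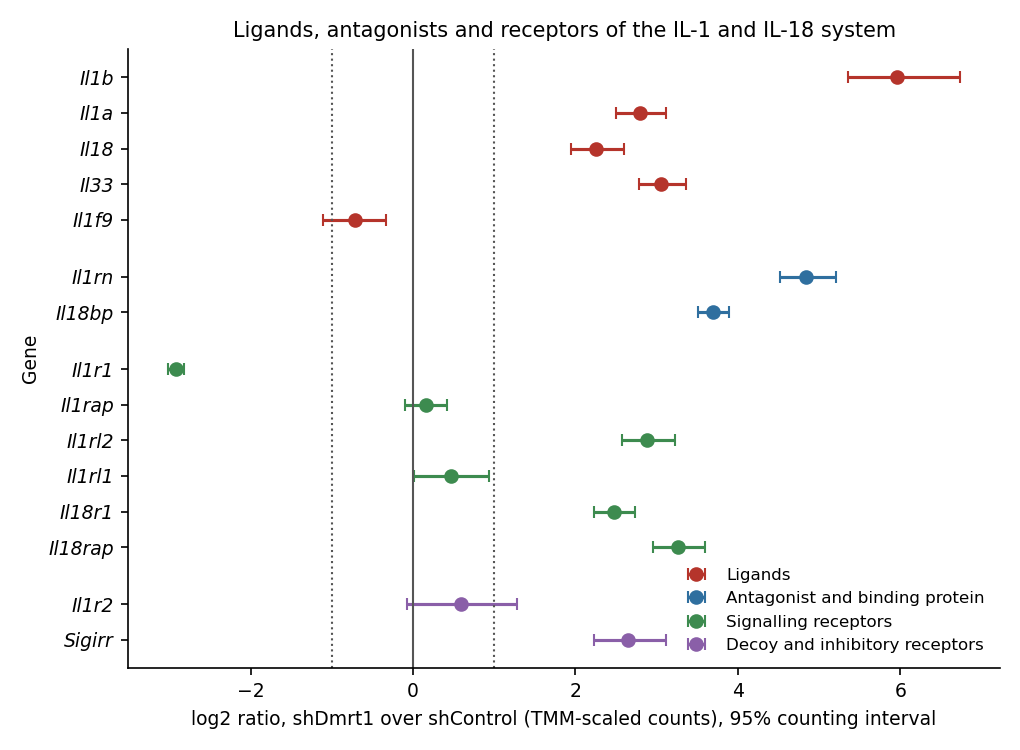
Log2 ratio of TMM-scaled counts, shDmrt1 over shControl, with 95% counting intervals for ligands, antagonists and receptors of the IL-1 and IL-18 system, where dotted lines mark 2-fold differences. Il1r1 at -2.92 is the one gene on the left beyond 2-fold, whereas Il1b at 5.96 and Il1rn at 4.84 lie farthest right.

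Other genes listed as inflammasome sensors and adaptors were mostly higher. The list includes Nlrc3, which stands on the restraint list as well, and Ifi202b, a relative of Aim2. Of 13 genes on it that passed the filter, 10 were higher, 1 lower and 2 neither (median 2.58). Mefv, which encodes the sensor pyrin, was 64.1-fold higher, with 1267 counts in shDmrt1 and 19 in shControl. The muramyl dipeptide sensor gene Nod2 was 16.1-fold higher, Nlrc5, a class I transactivator, 9.24-fold and Naip2, a sensor of bacterial secretion systems, 8.28-fold. Naip genes form a family of similar copies, so their reads can be split between them. Nek7, a kinase that NLRP3 needs, had 2872 counts in shDmrt1 and 1926 in shControl, a log2 ratio of 0.56, and was named after its value was seen.

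The lower gene of the sensor list was Ifi202b, with 0 counts in shDmrt1 and 246 in shControl. It was at least 83.2-fold lower against the 3 counts that a count of 0 allows in shDmrt1. In mice its product is known to bind DNA and to hold AIM2 in check. Its relatives in the gene cluster beside Aim2 went the other way, named after their values were seen. Ifi203 was 15.5-fold higher and Ifi204 7.55-fold, Ifi206 had 788 counts in shDmrt1 and 3 in shControl, and Ifi213 had 750 and 0, at least 246-fold higher by count, with a deposited FPKM of 0.0203 in shControl. From 12.2% to 25.6% of the 50-base stretches in the transcripts of these 4 genes occur in another gene, so their counts are less certain than that of Aim2, of which 0.628% are shared. The part of strain background in the ratios of these genes, of Ifi202b and of Aim2 was not tested, and with 1 library each it cannot be told apart from the hairpin.

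Of 17 priming and triggering genes, 12 were higher and 5 neither (median 2.09). Cybb, the catalytic subunit of the phagocyte NADPH oxidase, was 77.7-fold higher, Tlr2 23.6-fold, and the guanylate-binding proteins Gbp5 and Gbp2, which act on bacteria and their lipopolysaccharide upstream of caspase-4, 23.2-fold and 16.5-fold. Among 13 genes listed under restraint, 9 were higher, 2 lower and 2 neither (median 2.504). Pstpip1, which stands there as a partner of pyrin and not as an established inhibitor, was 16.7-fold higher. Tnfaip3, which removes ubiquitin from NF-kB signalling proteins, was 13.9-fold higher and Trim30a 6.12-fold. The lower pair were Park2, a ubiquitin ligase of mitochondrial clearance, 11.2-fold lower, and Serpinb1a, an inhibitor of neutrophil proteases that is also known to hold back caspase-1, 5.37-fold lower. Serpinb1a had 348 counts in shDmrt1 and 1844 in shControl.

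Caspases and gasdermins beyond the 10 genes showed smaller ratios, with 2 of 8 higher and 6 neither (median 0.71). Ninj1, described above, was one of the higher ones. Of 11 other proteases known to cut IL-1 family precursors or cytokines, 7 were higher, 1 lower and 3 neither. The median was 5.20, or 3.48 with 4 members at 0 shControl counts set at their bound. The neutrophil elastase gene Elane had 301 counts in shDmrt1 and 0 in shControl, at least 98.9-fold higher, Ctsg, the cathepsin G gene, 165 and 0, at least 54.2-fold, and Prtn3 353 and 9, 36.7-fold. The granzyme gene Gzmb was 45.5-fold higher. The membrane protease gene Mme was 4.53-fold lower. Elane also stands on the neutrophil list, and Gzmb on that of T and NK cells.

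Downstream of the receptor, the 19 signalling genes had a median of 0.80, and 8 of them were higher, 1 lower and 10 neither. The highest was Irak3, a kinase relative that restrains IL-1 and Toll-like receptor signalling, at 9.02-fold, followed by Irak2 at 5.26-fold, Peli1 at 4.43-fold and the inhibitor gene Nfkbia at 3.84-fold. Tab3, which links the receptor complex to a downstream kinase, was 2.495-fold lower. Genes that IL-1 is known to induce had a median of 3.33, with 13 of 17 higher, 2 lower and 2 neither. Mmp3, a matrix protease, was 75.3-fold higher and the acute phase gene Saa3 34.6-fold, with 57703 counts in shDmrt1 and 1646 in shControl. Nos2 had 21313 counts in shDmrt1 and 50 in shControl, and Cxcl2 335 and 0, at least 110-fold higher by count, although the deposited FPKM of Cxcl2 in shControl is 0.0607 and not 0. The lower pair, Lcn2 with 2480 counts in shDmrt1 and 90859 in shControl and Vcam1 with 3159 and 20766, were the 2 most abundant of these genes in shControl, and many of the listed genes are induced by other signals as well.

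**Figure D5:**
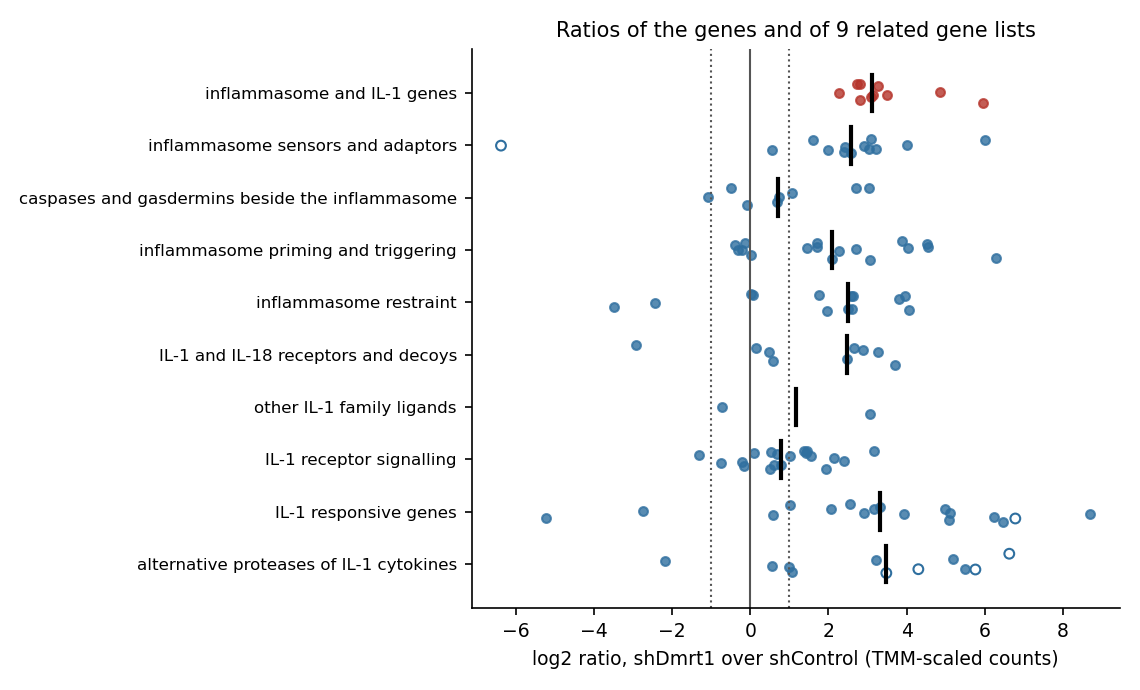
Each point is a gene that passed the filter, at its log2 ratio of TMM-scaled counts, shDmrt1 over shControl, by list. Open circles are genes at 0 counts in 1 library, drawn at their bound, bars are medians with those genes at their bound, and dotted lines mark 2-fold. All 10 inflammasome and IL-1 genes lie to the right of the 2-fold line. Every related list except the priming genes and the other ligands has points beyond 2-fold on both sides.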

How the data were processed

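RNA-seq of 1 shDmrt1 and 1 shControl testis library was analysed from 1 deposited table. The submitters' processing notes name, with no role, the build mm10, STAR 2.5.3a, Trimmomatic 0.36, edgeR 3.12.1, DESeq, and featureCounts with Subread 1.5.1. No source used here gives the annotation or the counted strand. Per the file headers, the authors deposited a read count and an FPKM per gene and an EBSeq comparison. TMM factors from edgeR 4.0.16 (R 4.3.3) were 0.858 for shDmrt1 and 1.17 for shControl. Log2 ratios used a prior count of 0.5, and 95% intervals are Clopper-Pearson intervals of the shDmrt1 share of both counts. The table gives no molecular identifiers, so intervals and floors (3 counts) cover counting error only. Ratios of 2 genes within a library have exact conditional intervals. Loci with at least 1 CPM in 1 library passed the filter.

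The members, 9 gene lists and 11 marker lists (112 of 127 and 70 of 72 genes analysed) were chosen with earlier results of these data known. Named were the members, and from each list of more than 8 genes up to 4 past the rule in each direction by the interval bound nearest 0. In simulated counts (shDmrt1 over shControl, Poisson error, 15104 genes), 89% of 100 genes changed 4-fold, 1% of 100 changed 2-fold and 0 of 14904 unchanged genes were called. Alternatives were size factors from DESeq2 1.42.0, library totals, a larger prior count (5), FPKM with a pseudocount of 0.1, other fold rules and filters. Gene positions come from the GENCODE M21 annotation (GRCm38, as in mm10), promoter windows from RefSeq (GRCm38.p6, 9 of 10 members matched). Antisense genes overlap exons of Pycard, Il1a and Il1b by 485, 222 and 25 bases. Python 3.11.15, scipy 1.17.1 and pandas 2.3.3 were used. Not every gene that the naming rule selects is reported here.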

Additional observations from a re-analysis of the deposited data

How the results depend on the processing

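No paired analysis was possible because there is a single library on each side, so none could be left out either. All 10 genes stayed higher by the rule in use under every alternative run for the count, and none changed sign. DESeq2 size factors and a prior count of 5 left all 10 inside their counting intervals. Library totals lowered the log2 ratio of all loci by a median of 0.44 (a shift of -0.44) and moved 9 of the 10 below their intervals, with a range of 1.82 to 5.53, and FPKM moved 2 of 10. With library totals the median was 2.67 for the 10 genes, 2.14 for sensors and adaptors, 0.27 for other caspases and gasdermins, 1.65 for priming genes, 2.04 for receptors, 0.73 for other ligands, 0.36 for signalling genes and 2.89 for responsive genes, while 5 signalling genes were higher and 2 lower. For other caspases and gasdermins, 1 was lower with library totals, with FPKM, by the point estimate and by the 1.5-fold rule, which called 5 higher, and the FPKM median was 0.52. The 1.5-fold rule called 1 other ligand and 2 signalling genes lower, and 4484 loci higher and 4902 lower in all. Without a filter the median of other ligands was 0. With a prior count of 5 that of the other proteases was 2.96, since 4 of them had 0 shControl counts. The 19 shControl counts of Il1b limit every ratio that holds it.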

Other observations

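Within 100 kb of a member, 37 other genes passed the filter, of which 8 were higher, 4 lower and 25 neither, beside 17.8% higher and 20.8% lower among all loci. Beside Gsdmd, all 7 such genes were neither, Eef1d among them with 2608 counts in shDmrt1 and 1983 in shControl. Beside Il1rn, Psd4 had 1820 counts in shDmrt1 and 301 in shControl (log2 ratio 2.57), and Pax8, a transcription factor, 285 and 40 (2.80). Beside Il1a lay Ckap2l, a spindle gene, with 150 and 213 counts (-0.52), and Slc20a1, a phosphate transporter, with 1635 and 729 (1.14). Beside Il18, Dixdc1 had 49 counts in shDmrt1 and 446 in shControl (-3.19). Beside Nlrp3, no gene was higher and Snap47 was lower, with 424 and 993 counts (-1.25).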
